A study of Mus musculus with 8 samples.

Results

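Imprinted genes that act in fetal and placental growth are described here across 8 bead arrays of mouse embryonic fibroblasts (MEFs, connective tissue cells grown out of embryos). The members are 10 genes, Igf2, H19, Dlk1, Slc38a4, Peg3, Mest, Cdkn1c, Plagl1, Grb10 and Ndn, of the 17870 genes named on the array, and they were found as all rows of the non-normalized table that carry one of these names. They hold 14 probes. The arrays fall into 4 groups of 2 with 1 culture medium (DMEM with 10% serum and antibiotics): TICAM knockout MEFs that received c-di-GMP, TICAM knockout MEFs that received DMSO, wild-type (WT) MEFs that received c-di-GMP, and wild-type MEFs that received DMSO. TICAM stands for Ticam1, per the series' design text, the gene of the adaptor protein TRIF, which Toll-like receptors use to signal. The bacterial signalling molecule c-di-GMP, which the STING protein detects in mammalian cells, was given at 8 µg/ml with Lipofectamine 2000 for 30 min, control cells got the same amount of DMSO, and RNA was taken after 4 h. The study asked which genes respond to c-di-GMP in either genotype. The labels do not give the strain, the embryo's age, the number of embryos, the passage or the kind of knockout allele of either cell population, so a difference between the genotypes cannot be told apart from any other difference between these 2 MEF populations. Nothing in the labels says that the arrays of a group were separate cultures, and each p-value therefore covers only array-to-array spread, which may be technical.

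Imprinted genes are read from only 1 of the parental chromosomes, by DNA methylation set in the egg or sperm. Paternally expressed genes often favour growth of the fetus and maternally expressed ones often restrain it, and many of them are high in the embryo and silenced after birth. Among the members, Igf2 encodes insulin-like growth factor 2, and H19, a maternally expressed long noncoding RNA, lies beside it and shares its enhancers. Dlk1 encodes a membrane protein of the Notch ligand family that holds back fat cell differentiation. Slc38a4 encodes a transporter of neutral amino acids. Peg3 and Plagl1 encode zinc finger proteins, Mest a protein of the hydrolase fold family, and Cdkn1c the cell cycle inhibitor p57. Grb10 encodes an adaptor that dampens signals of the insulin and IGF1 receptors, and Ndn encodes necdin, which restrains the cell cycle.

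The promoters of the members in which the genotypes differed, and of the 2 members read strongly in both genotypes, are shown to set their sequences side by side. They come from the RefSeq promoter table of build GRCm38.p6, which gives for each start site the 250 bases before it and 50 after it, on the gene's strand, 5′ to 3′, and CpG sites are in capitals. The table holds windows of 8 of the 10 members. Igf2 has 4 windows there, of which that with the most CpG sites is printed, and Slc38a4 has 3 and Grb10 has 2, of which the first listed is printed.
Igf2 (chr7:142658755-142659054, minus strand): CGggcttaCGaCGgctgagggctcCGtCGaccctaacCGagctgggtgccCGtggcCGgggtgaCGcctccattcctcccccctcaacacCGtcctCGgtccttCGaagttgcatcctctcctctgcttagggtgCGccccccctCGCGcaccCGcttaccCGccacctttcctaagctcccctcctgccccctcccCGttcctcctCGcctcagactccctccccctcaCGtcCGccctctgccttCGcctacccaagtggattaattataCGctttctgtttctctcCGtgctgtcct
Dlk1 (chr12:109452573-109452872, plus strand): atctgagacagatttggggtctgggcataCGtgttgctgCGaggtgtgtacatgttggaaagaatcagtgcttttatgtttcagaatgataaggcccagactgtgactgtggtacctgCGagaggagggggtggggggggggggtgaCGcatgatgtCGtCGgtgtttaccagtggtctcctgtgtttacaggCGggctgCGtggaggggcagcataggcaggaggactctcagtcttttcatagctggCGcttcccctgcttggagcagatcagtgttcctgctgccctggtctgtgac
Slc38a4 (chr15:97055907-97056206, minus strand): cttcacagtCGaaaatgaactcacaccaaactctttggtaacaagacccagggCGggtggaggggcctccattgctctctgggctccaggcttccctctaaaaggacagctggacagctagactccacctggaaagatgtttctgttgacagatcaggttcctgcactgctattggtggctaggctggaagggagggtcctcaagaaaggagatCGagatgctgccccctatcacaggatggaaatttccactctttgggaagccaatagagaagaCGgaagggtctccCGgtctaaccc
Grb10 (chr11:12037371-12037670, minus strand): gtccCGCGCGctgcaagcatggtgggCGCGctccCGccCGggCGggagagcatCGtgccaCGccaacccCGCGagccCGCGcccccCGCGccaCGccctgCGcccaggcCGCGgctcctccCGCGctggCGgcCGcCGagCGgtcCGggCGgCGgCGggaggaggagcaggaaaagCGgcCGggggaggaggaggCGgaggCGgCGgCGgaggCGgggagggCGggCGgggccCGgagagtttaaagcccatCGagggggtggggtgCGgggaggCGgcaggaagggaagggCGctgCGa
Ndn (chr7:62348027-62348326, plus strand): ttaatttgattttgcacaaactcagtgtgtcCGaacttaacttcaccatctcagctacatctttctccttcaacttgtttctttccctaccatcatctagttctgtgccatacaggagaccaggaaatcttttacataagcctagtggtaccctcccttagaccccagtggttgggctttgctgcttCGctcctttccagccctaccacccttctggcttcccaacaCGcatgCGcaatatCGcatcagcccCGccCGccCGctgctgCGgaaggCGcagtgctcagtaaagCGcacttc

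The printed windows held 24 CpG sites for Igf2, 9 for Dlk1, 5 for Slc38a4, 45 for Grb10 and 11 for Ndn, against a median of 7 over the 32851 promoter windows of the table. The choice of window matters for these counts: the other Igf2 windows held 2, 14 and 7 CpG sites, the other Grb10 window 9, and both other Slc38a4 windows 5. The letters TATAAA, searched on both strands, were in none of the 5 printed windows but in 1 of the other Slc38a4 windows, and 13.6% of all windows held them. GGGCGG, the letters of a GC box, was found on either strand 1 time in the Igf2 window, 1 time in that of Slc38a4, 5 times in that of Grb10 and 2 times in that of Ndn, and not in that of Dlk1; 35.7% of all windows held it at least 1 time. In the RefSeq gene order Igf2 and H19 are near neighbours on chromosome 7, followed by Ins2, and Dlk1 is followed by Meg3 and Rtl1 on chromosome 12, while Slc38a4 lies on chromosome 15 and Grb10 on chromosome 11. Ndn and Peg3 lie on chromosome 7 as well, Ndn beside Magel2, Mkrn3 and Peg12 and Peg3 between Zim1 and Usp29.

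The arrays were not equally good. On 7 of them the mean signal was 252.6 to 648.9, and 11254 to 11657 of the 25697 probes were detected (detection p under 0.05). On the second knockout DMSO array, called SAMPLE 8 in the labels, the mean signal was 225.9 and 6468 probes were detected, and its signal at the 99th percentile was 7.55 times that at the 5th, against 38.29 to 82.97 times on the others. Its normalized values correlated with those of the first knockout DMSO array at 0.833, against 0.984 to 0.993 within the remaining groups (across probes, which are not independent). Every comparison was therefore fitted with 8 arrays and with 7, without SAMPLE 8, and values are those with 8 arrays unless stated. With 7 the knockout DMSO group has 1 array, and its spread is taken to be that of the remaining groups. Ticam1 itself checked no label. Its brighter probe read 124.6 to 167.9 in knockout and 90.7 to 157.2 in wild-type cells and was detected on 3 of 8 arrays. Its other probe was detected on 0, and the position of the probes relative to the change in the knockout allele is unknown. The fibroblast identity of the label had its markers: 11 of 11 fibroblast marker genes on the array were detected, with a summed normalized intensity of 28309 to 48230 in knockout (28309 to 30609 without SAMPLE 8) and 36465 to 45570 in wild-type arrays.

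Igf2, Dlk1 and Slc38a4 gave clear signals on all 4 knockout arrays and H19 on 3 of them. In wild-type cells H19 and Slc38a4 were detected on 0 arrays, Igf2 on 2 and Dlk1, at a lower level, on all 4. The direction was the same under c-di-GMP and under DMSO, and the difference of H19 passed the test with 7 arrays but not with 8. Grb10 and Ndn, by contrast, gave strong signals in both genotypes, and Peg3, Mest, Cdkn1c and Plagl1 gave no or hardly any signal above background in either.

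Igf2, the fetal growth factor, read 2066.5 and 1899.1 (non-normalized signal, in the scanner's intensity units) in knockout cells under c-di-GMP and 2124.2 and 421.1 in knockout cells given DMSO, against 83.9 and 149.8 in wild-type cells under c-di-GMP and 164.3 and 137.8 in wild-type cells given DMSO. The value of 421.1 is that of SAMPLE 8, and even this lowest knockout array lay above all 4 wild-type arrays, so the genotypes did not overlap. In wild-type cells Igf2 passed the detection threshold on both DMSO arrays (detection values of 0.0326 and 0.0138, under the limit of 0.05) and on neither c-di-GMP array (0.41 and 0.0639). After normalization (log2 intensity) Igf2 averaged 10.52 ± 0.24 in knockout and 5.07 ± 0.42 in wild-type cells given c-di-GMP (SD, n = 2 each). Since the wild-type mean is a background reading, Igf2 was at least 33.8-fold higher in knockout cells given c-di-GMP (difference 5.45 ± 0.32 on the log2 scale, SE; limma adjusted p = 0.000137). This "at least" ratio sets the knockout mean against, for each wild-type array, whichever is higher of that array's lowest detected signal and the reading of the gene. It is a bound within this normalization only, here and for the genes below. Under the alternative settings the log2 difference with c-di-GMP ran from 3.43 to 5.68 for Igf2 and from 1.6 to 3.62 for Slc38a4. With DMSO, where both sides were measured, Igf2 averaged 10.48 ± 0.10 in knockout and 5.74 ± 0.30 in wild-type cells, a 26.7-fold difference (4.74 ± 0.32, adjusted p = 0.000369). Among 9541 genes tested its difference ranked 3 from the top with c-di-GMP and 8 with DMSO. The log2 differences of Igf2 without SAMPLE 8 were 5.63 with c-di-GMP and 4.94 with DMSO.

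Dlk1, the brake on fat cell differentiation, was the only member besides Grb10 and Ndn that was detected on all 8 arrays. It read 3046.4 and 2749.5 in knockout cells under c-di-GMP and 2695.9 and 642.1 in knockout cells given DMSO, against 132.4 and 238.9 in wild-type cells under c-di-GMP and 221.6 and 144.7 in wild-type cells given DMSO. Again every knockout array, SAMPLE 8 included, was above every wild-type array. The normalized means were 11.08 ± 0.25 in knockout and 7.08 ± 0.53 in wild-type cells given c-di-GMP, a 16-fold difference (4.00 ± 0.38, adjusted p = 0.001). With DMSO they were 11.23 ± 0.47 in knockout and 6.31 ± 0.23 in wild-type cells, a 30.2-fold difference (4.92 ± 0.38, adjusted p = 0.000622). Dlk1 ranked 15 from the top with c-di-GMP and 5 with DMSO. Its log2 differences without SAMPLE 8 were 4.05 with c-di-GMP and 4.66 with DMSO.

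Slc38a4, the amino acid transporter gene, read 401.5 and 655 in knockout cells under c-di-GMP and 673.4 and 389.7 in knockout cells given DMSO, against 90.1 and 122.2 in wild-type cells under c-di-GMP and 146.9 and 114.2 in wild-type cells given DMSO. It was detected on all 4 knockout arrays and on 0 wild-type arrays. Slc38a4 was at least 7.34-fold higher in knockout cells given c-di-GMP (log2 difference 3.26 ± 0.50, adjusted p = 0.0074) and at least 15.9-fold higher with DMSO (4.26 ± 0.50, adjusted p = 0.00306). SAMPLE 8 carried the highest normalized value of Slc38a4, 10.12, against 8.70 on the other knockout DMSO array, and without it the DMSO bound was at least 10.7-fold. The call with c-di-GMP was also sensitive to single arrays, since adjusted p was 0.0787 without the second knockout c-di-GMP array and, among the wild-type arrays under c-di-GMP, 0.0525 without the first and 0.0703 without the second.

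H19, the noncoding RNA beside Igf2, read 309.2 and 286.8 in knockout cells under c-di-GMP and 355.2 and 171.7 in knockout cells given DMSO, against 89.8 and 106.8 in wild-type cells under c-di-GMP and 124.7 and 109 in wild-type cells given DMSO. It was detected on 3 knockout arrays and on 0 wild-type arrays, and the reading of 171.7, on SAMPLE 8, was itself a background reading, with a detection value of 0.342. With 8 arrays the difference was not called in either treatment: 2.35 ± 0.73 with c-di-GMP (adjusted p = 0.0842) and 1.45 ± 0.73 with DMSO (adjusted p = 0.227). Without SAMPLE 8 it was called in both, at least 3.87-fold higher with c-di-GMP (2.50 ± 0.27, adjusted p = 0.000475) and at least 4.7-fold higher with DMSO (2.82 ± 0.33, adjusted p = 0.0013).

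**Figure D1:**
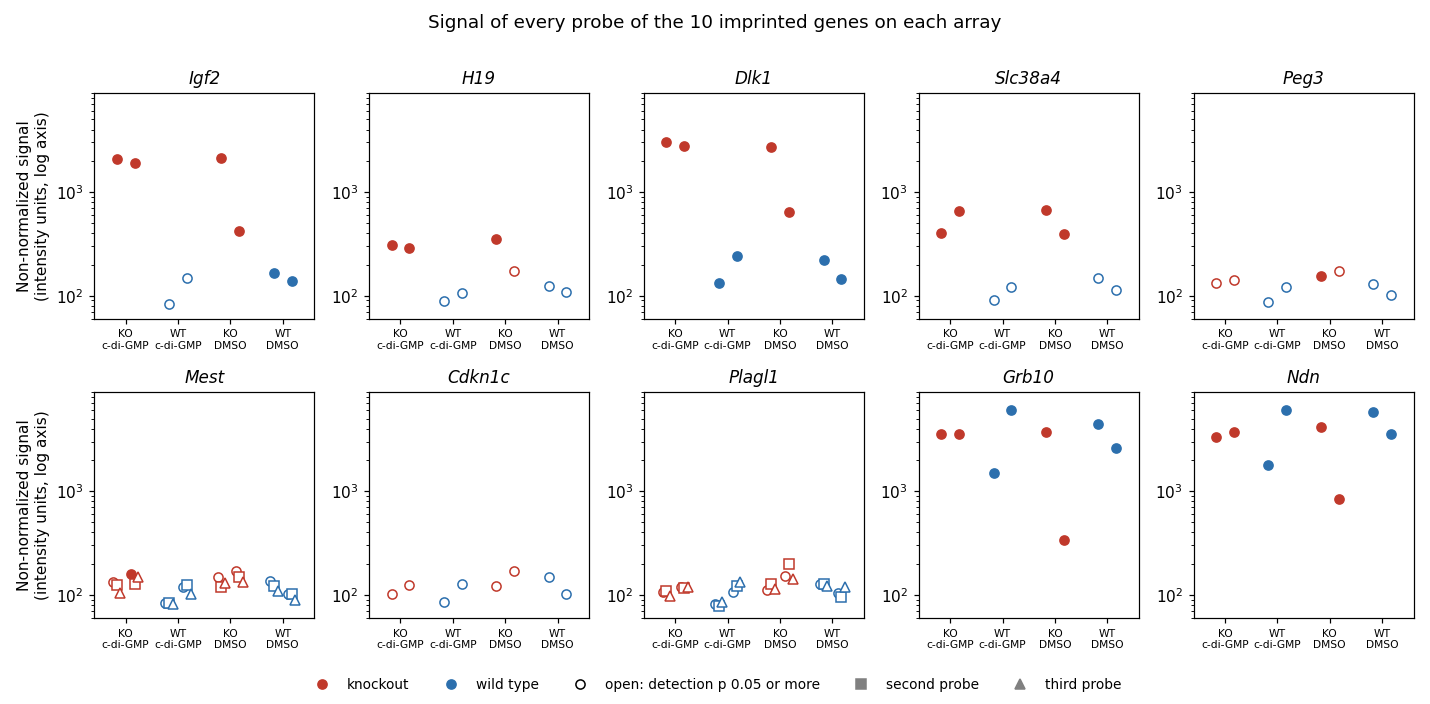
Non-normalized signal (intensity units, log axis) of all 14 probes of the 10 imprinted genes on each of the 8 arrays; within each treatment the knockout arrays (red) stand left of the wild-type arrays (blue), replicate 1 left of replicate 2, and open symbols mark a detection p of 0.05 or more. Igf2, Dlk1 and Slc38a4 are higher in all knockout arrays than in wild-type arrays, H19 is detected on 3 knockout arrays and not on SAMPLE 8, Grb10 and Ndn are high in both genotypes, and the 8 probes of Peg3, Mest, Cdkn1c and Plagl1 sit near background.

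Grb10, the adaptor that dampens insulin and IGF1 receptor signals, was read strongly everywhere. Its signals were 3561.6 and 3530.9 in knockout cells under c-di-GMP and 3674.1 and 339.5 in knockout cells given DMSO, against 1494.5 and 6112.6 in wild-type cells under c-di-GMP and 4389.4 and 2604.2 in wild-type cells given DMSO. The non-normalized knockout values lay inside the wild-type range, apart from SAMPLE 8, which was below all other arrays. That range joins arrays of unequal brightness, with mean signals of 252.6 and 640.3 on the wild-type c-di-GMP arrays. After normalization Grb10 read 9.67 to 11.48 in knockout and 11.61 to 12.08 in wild-type arrays, with no overlap. The normalized difference was -0.53 ± 0.52 with c-di-GMP (95% interval -1.78 to 0.72, adjusted p = 0.591) and -1.14 ± 0.52 with DMSO (-2.39 to 0.11, adjusted p = 0.194). Without SAMPLE 8 it was -0.54 ± 0.18 (adjusted p = 0.0528) and -0.30 ± 0.23 (adjusted p = 0.368). These intervals leave room for a lower level in knockout cells but not for an increase like that of Igf2 or Dlk1.

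Ndn, the necdin gene, read 3304.9 and 3701.8 in knockout cells under c-di-GMP and 4123.7 and 838.4 in knockout cells given DMSO, against 1789.2 and 6016.8 in wild-type cells under c-di-GMP and 5741.7 and 3577.7 in wild-type cells given DMSO. As for Grb10, the wild-type c-di-GMP arrays stood on either side of the knockout c-di-GMP arrays before normalization, and the dimmer of them was also the array with the lower mean signal. The normalized difference was -0.65 ± 0.30 with c-di-GMP (95% interval -1.37 to 0.07, adjusted p = 0.226) and -0.23 ± 0.30 with DMSO (-0.95 to 0.50, adjusted p = 0.629). Without SAMPLE 8, Ndn was called lower in knockout cells given c-di-GMP (-0.65 ± 0.15, adjusted p = 0.0126), a call that median scaling in place of quantile normalization did not give (-0.23, adjusted p = 0.754, where the median of all genes was 0.47). With DMSO and 7 arrays Ndn differed by -0.60 ± 0.19 (adjusted p = 0.0532).

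**Figure D2:**
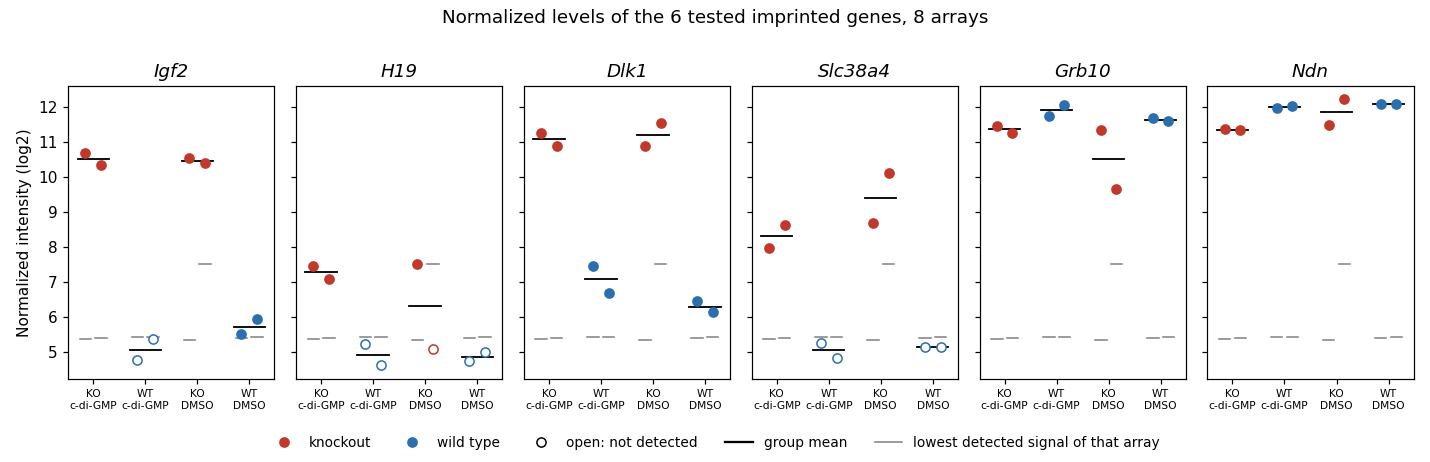
Normalized log2 intensity of the 6 tested imprinted genes on the 8 arrays, knockout (red) left of wild type (blue) within each treatment; black lines are group means (n = 2), open circles are readings that were not detected, and short grey lines mark the lowest detected signal of that array. The grey line of SAMPLE 8 stands at 7.53 and those of the other arrays at 5.36 to 5.45, and the wild-type readings of H19 and Slc38a4 lie below the line of their array.

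The other 4 members did not pass the requirement of detection on at least 2 arrays and were not tested with the rest. Peg3, a paternally expressed zinc finger gene, was detected on 1 array, the first knockout DMSO array (signal 154.9, detection value 0.0426). It read 132.9 and 141 in knockout cells given c-di-GMP, against 87.7 and 121.2 in wild-type cells given c-di-GMP. Of the 3 probes of Mest, 1 was detected, on the second knockout c-di-GMP array only (signal 160.4, detection value 0.0363). The single probe of Cdkn1c and the 3 probes of Plagl1 were detected on 0 arrays. When every probe was fitted without the detection requirement, none of these 4 genes was called: the differences with c-di-GMP were 0.24 ± 0.18 for Peg3 (adjusted p = 0.68), 0.62 ± 0.17 for Mest (0.118), -0.17 ± 0.19 for Cdkn1c (0.898) and -0.01 ± 0.50 for Plagl1 (1). These are differences between background readings, and a level below the detection limit could differ without being seen here.

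In counts, 3 of the 10 members (6 were tested), Igf2, Dlk1 and Slc38a4, were called higher in knockout cells under c-di-GMP and the same 3 with DMSO, with 8 arrays. Of all 9541 genes tested, 5.85% were called higher in knockout cells under c-di-GMP and 5.24% with DMSO, and 8.14% and 7.48% were called lower. With 7 arrays 4 members were called higher in each treatment, H19 being the addition, beside a background of 23.8% of 9464 genes with c-di-GMP and 13.8% with DMSO; Ndn was called lower with c-di-GMP, beside 20.5% of all genes, and 0 members were called lower with DMSO, beside 14%. The 6 tested members include H19 and Slc38a4, which passed the detection requirement through the knockout arrays alone, so that a difference in these genes is in part built into the requirement. The members were also chosen with earlier results of these data known, so their counts cannot be weighed against the shares of all genes. The comparisons with c-di-GMP and with DMSO use different arrays in both genotypes, but they share the 2 cell populations. Leaving out either knockout DMSO array raised the number of genes called with c-di-GMP (1335 with 8 arrays, 4282 without the first and 4195 without the second of them). The difference of Ndn under c-di-GMP was -0.65 in both fits, while its SE was 0.30 with 8 arrays and 0.15 with 7.

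**Figure D3:**
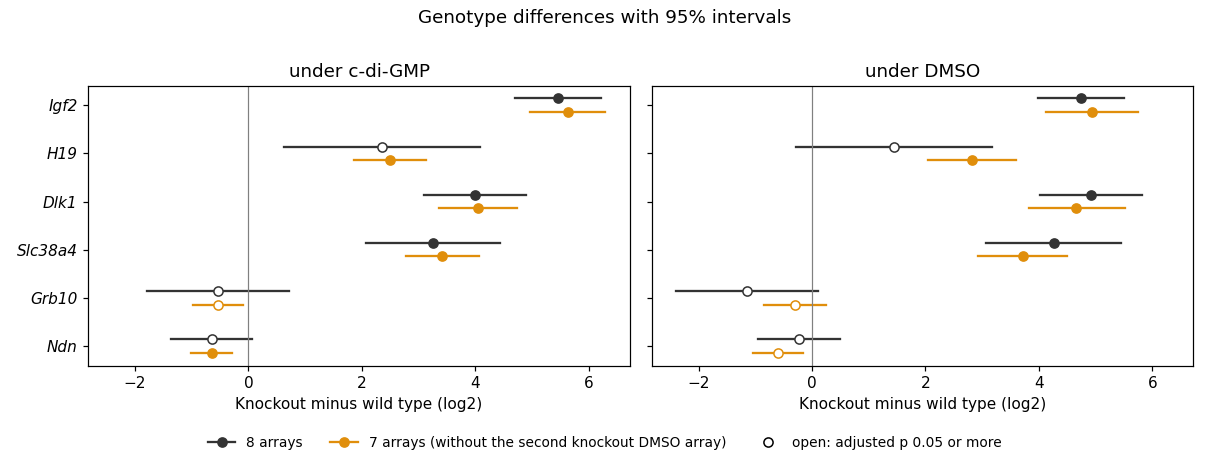
Knockout minus wild type (log2) with 95% intervals for the 6 tested imprinted genes, under c-di-GMP (left) and DMSO (right), with 8 arrays (dark) and with 7 (orange, without SAMPLE 8); filled points have an adjusted p under 0.05. Igf2, Dlk1 and Slc38a4 lie between 3.26 and 5.63 in both treatments and both fits, H19 is called with 7 arrays only, and Grb10 and Ndn lie between -1.14 and -0.23.

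No member was called for a response to c-di-GMP after 4 h. In knockout cells the differences between c-di-GMP and DMSO ran from -1.09 ± 0.50 for Slc38a4 to 0.97 ± 0.73 for H19 with 8 arrays (adjusted p = 0.529 each), where 0% of all genes were called by limma (254 genes at an unadjusted p under 0.05). In wild-type cells they ran from -0.66 ± 0.32 for Igf2 (adjusted p = 0.862) to 0.77 ± 0.38 for Dlk1 (adjusted p = 0.872), where 0.597% of all genes were called. The Igf2 value came from undetected readings with c-di-GMP and weak readings with DMSO, and its 95% interval of -1.43 to 0.10 included no change. With 7 arrays 0 members were called in knockout cells, beside 0% of all genes, and 0 in wild-type cells, beside 5.78%. The genotype difference of a member was not shown to depend on c-di-GMP: the test of that dependence called 0 members, beside 0.0419% of all genes with 8 arrays and 0.549% with 7. Its values with 8 arrays were 0.71 ± 0.45 for Igf2 (adjusted p = 0.71), -0.92 ± 0.53 for Dlk1 (0.71) and 0.90 ± 1.03 for H19 (0.737), and for Slc38a4 the 95% interval was -2.68 to 0.68 (adjusted p = 0.71). These intervals are too wide to call the treatments alike. As a check that c-di-GMP acted on wild-type cells, 7 of 8 interferon genes chosen for this purpose were called higher there with 8 arrays. In knockout cells 0 of 8 were called, so this check cannot tell whether c-di-GMP reached them. With DMSO 6 of the 8 were already called lower in knockout than in wild-type cells, beside 7.48% of all genes. Among these 6, Cxcl10, Rsad2, Isg15 and Oasl1 passed the detection requirement through the wild-type arrays alone. Their difference is in part built into the requirement, so the count cannot be weighed against that share.

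As a measure of likeness between members, each gene was centred on its own mean and the root mean square distance between normalized log2 profiles was taken over the 7 arrays without SAMPLE 8. The values were those of the normalization of all 8 arrays. H19 and Slc38a4 were 0.53 apart, Dlk1 and Slc38a4 0.68, Igf2 and Dlk1 0.79 and the neighbours Igf2 and H19 1.39. Grb10 and Ndn were 0.20 apart and 1.45 to 2.87 from Igf2, H19, Dlk1 and Slc38a4. The distance grows with the size of the genotype difference, so it mostly sorts genes by that size, and genes at background in wild-type cells have no order there. The genes nearest to Igf2 over all 9541 were Hoxd8 at 0.31, a homeobox gene of embryonic axis and limb patterning, Il1rl1 at 0.42, the receptor gene of interleukin 33, and Capn6 at 0.43. Those nearest to Dlk1 were Irx2 at 0.32, a homeobox gene, Cd34 at 0.36, a surface protein gene of progenitor and endothelial cells, and Slc6a15 at 0.37. Nearest to Slc38a4 were S100a7a at 0.19, Tril at 0.23 and Msln at 0.24, the mesothelin gene, and nearest to H19 were Sox9 at 0.16, a cartilage transcription factor gene, Spp1 at 0.17, the osteopontin gene, and Mcm2 at 0.22, a DNA replication gene. Grb10 was nearest to Man1a at 0.05 and to Ptpn12 and Cept1 at 0.07, and Ndn to Lamtor4 at 0.03 and to Cfl2 and Commd3 at 0.06.

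Other imprinted genes of the array were set beside the members. Of 58 further imprinted genes, 47 had a probe and 20 were tested. Whether each of them is imprinted in these cells was not measured. With c-di-GMP and 8 arrays, 0 were called higher and 4 lower in knockout cells, with a median difference of -0.61 against 0.10 over all genes. With DMSO 1 was higher and 5 were lower (median -0.69 against -0.11 over all genes). With 7 arrays 1 was higher and 9 were lower with c-di-GMP, and 2 were higher and 8 were lower with DMSO. The share of all genes called lower was 8.14% with c-di-GMP and 7.48% with DMSO with 8 arrays, and 20.5% and 14% with 7. The counts fell with the scaling: with median scaling 0 were higher and 1 was lower in each treatment, and with median scaling and no SAMPLE 8, 1 was higher and 2 were lower with c-di-GMP and 1 was higher and 1 was lower with DMSO. The median of the list was below that of all genes under each scaling tried.

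Pon3, a paraoxonase gene, had the largest difference of these under c-di-GMP: it was not detected in knockout cells and was at least 10.4-fold lower there with c-di-GMP (-4.12 ± 0.26, adjusted p = 0.000206) and at least 4.37-fold lower with DMSO (-3.82 ± 0.26, adjusted p = 0.000395). Pon3 passed the detection requirement through the wild-type arrays alone, so its difference is in part built into the requirement. The same holds for Igfbp2, Dnmt3l, Lyz2, Cd52 and Laptm5 below. Pon2, another paraoxonase gene, differed by -1.42 ± 0.31 (adjusted p = 0.0258). Snurf, which shares a transcript with the splicing gene Snrpn, differed by -1.92 ± 0.39 with c-di-GMP (adjusted p = 0.0211) and -2.03 with DMSO (adjusted p = 0.0199). H13, a signal peptide peptidase gene, differed by -1.49 ± 0.31 with c-di-GMP (adjusted p = 0.0232). With DMSO, Blcap (-1.52, adjusted p = 0.0186) and Tnfrsf22 (-1.40, adjusted p = 0.0391), a decoy receptor gene near the Cdkn1c domain, were lower as well. Dcn, which encodes the matrix protein decorin, was higher with DMSO (1.76 ± 0.39, adjusted p = 0.0325). It differed by 1.00 ± 0.39 with c-di-GMP (adjusted p = 0.153), and by 1.00 with c-di-GMP and 1.19 with DMSO without SAMPLE 8. With 7 arrays the calls also took in Igf2r, Gab1 and Atp10a as lower with c-di-GMP, Trappc9 as lower and Rasgrf1 as higher with DMSO. Igf2r, the maternally expressed receptor gene that clears Igf2, differed by -0.83 ± 0.22 with c-di-GMP and 7 arrays (adjusted p = 0.021) and by -0.82 ± 0.35 with 8 (adjusted p = 0.182).

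Of the imprinted neighbours that were looked up, most were detected on 0 or 1 arrays; other genes nearby were not examined. Of the Dlk1 domain, Rtl1 was detected on 0 arrays and Dio3 on 1, and Ins2, beside Igf2, on 0. Of the Cdkn1c domain, Phlda2, Kcnq1, Ascl2 and Osbpl5 were detected on 0 arrays and Slc22a18 on 1. Zim1 and Usp29, on either side of Peg3, were detected on 0 arrays, Ddc, beside Grb10, on 1, and Magel2, beside Ndn, on 0. Mkrn3, also beside Ndn, was tested and differed by 0.52 ± 0.45 with c-di-GMP (adjusted p = 0.534) and by -0.81 ± 0.45 with DMSO (adjusted p = 0.263). Meg3, Rian, Mirg, Snrpn, Kcnq1ot1, Copg2 and Klf14 were not analysed here.

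**Figure D4:**
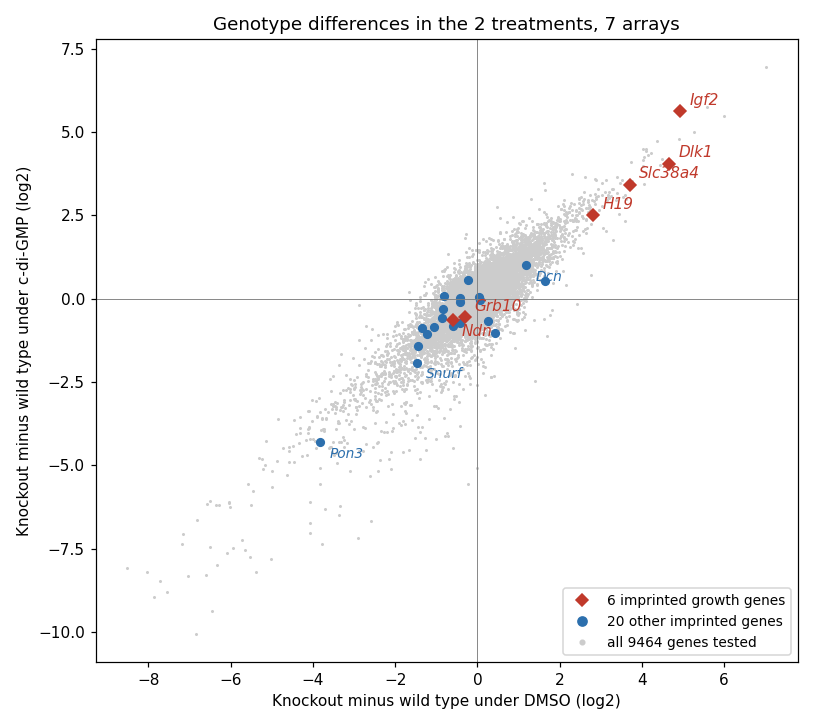
Knockout minus wild type (log2) under DMSO on the horizontal axis and under c-di-GMP on the vertical axis for all 9464 genes tested with 7 arrays (grey), the 20 other imprinted genes tested (blue circles) and the 6 imprinted growth genes tested (red diamonds). Igf2, Dlk1, Slc38a4 and H19 lie at the upper right, from 2.50 to 5.63 under c-di-GMP, Grb10 and Ndn lie among the other imprinted genes, and Pon3 is the lowest of these at -4.31 under c-di-GMP.

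Around the ligand Igf2, 17 of 21 genes of the insulin-like growth factor pathway were tested. With 8 arrays 5 were called higher and 2 lower in knockout cells in each treatment (list medians 0.35 with c-di-GMP and 0.38 with DMSO, against 0.10 and -0.11 over all genes). Relative to all genes the list median was higher under each scaling tried, though with median scaling and DMSO its own sign turned (-0.58 against -0.63 over all genes), and with median scaling of 8 arrays 0 genes of the list were called in either treatment. Of the 7 called genes, 4 encode binding proteins of the ligands. Igfbp5 was at least 5.95-fold higher (2.97 ± 0.41, adjusted p = 0.00486) and Igfbp3 differed by 2.58 ± 0.43 (adjusted p = 0.0102), while Igfbp2 was at least 4.73-fold lower (-2.99 ± 0.30, adjusted p = 0.0013) and Igfbp7 differed by -1.04 ± 0.23 (adjusted p = 0.0287), all with c-di-GMP. With DMSO the differences were 2.89 for Igfbp5, 2.39 for Igfbp3, -2.30 for Igfbp2 (at least 1.52-fold lower) and -0.91 for Igfbp7, each called. Irs2, a docking protein gene downstream of the receptors, was at least 7.31-fold higher with c-di-GMP (3.29 ± 0.31, adjusted p = 0.000938) and 2.52-fold higher with DMSO (1.33 ± 0.31, adjusted p = 0.0356). With DMSO it was detected on both wild-type arrays but not on SAMPLE 8, without which the difference was 3.05-fold. Hmga2 and Hmga1, chromatin protein genes of growing embryonic cells, differed by 1.26 ± 0.31 and 1.21 ± 0.27 with c-di-GMP (adjusted p = 0.0398 and 0.0303). Igf1r, the receptor gene, and Igf1 did not pass the test: Igf1r differed by -0.17 with c-di-GMP (adjusted p = 0.848), and the ligand gene Igf1 by 0.35 (adjusted p = 0.572). Of the mRNA-binding proteins of Igf2, Igf2bp1 differed by 1.17 ± 0.42 with 8 arrays (adjusted p = 0.128) and was called with 7 (adjusted p = 0.00467).

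Genes that set or keep imprints were tested for 12 of 15. With 8 arrays 1 was higher and 1 was lower in each treatment, with medians of 0.66 with c-di-GMP and 0.58 with DMSO; with median scaling the DMSO median was -0.22, against -0.63 over all genes, and 0 genes of the list were called in either treatment. Smchd1, which silences imprinted clusters and the inactive X, was higher with c-di-GMP (1.51 ± 0.32, adjusted p = 0.0246), and Uhrf1, which brings the methyltransferase to replicating DNA, was higher with DMSO (2.34 ± 0.51, adjusted p = 0.0312). Dnmt3l, the cofactor of methylation in germ cells, was undetected in knockout arrays and at least 2.09-fold lower with c-di-GMP (-1.25 ± 0.29, adjusted p = 0.0338), but 0 genes of the list were called lower with median scaling, with the authors' normalized values or without background correction. Dnmt1, the methyltransferase that copies methylation at replication, differed by 1.72 ± 0.57 with c-di-GMP and 8 arrays (adjusted p = 0.101). Without SAMPLE 8 this difference was 1.74 ± 0.16. Dnmt3b and Mbd3, of the same list, differed by 1.33 ± 0.59 and 0.95 ± 0.40 with c-di-GMP and 8 arrays (adjusted p = 0.199 and 0.178). Ctcf, whose protein insulates Igf2 from the shared enhancers on the maternal chromosome, differed by 0.87 ± 0.26 with 8 arrays (adjusted p = 0.0726) and was called with 7 (adjusted p = 0.00949). DNA methylation itself was not measured.

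Other features of the cells moved with the same genotype difference. Of 9 proliferation markers on the array 8 were tested. Of these, 7 were called higher in knockout cells under c-di-GMP and 6 with DMSO, beside 5.85% and 5.24% of all genes. The summed normalized intensity of the proliferation markers was 13197 to 13822 in knockout and 3113 to 3597 in wild-type arrays. Of 9 leukocyte markers 7 were tested, and their sum was 303 to 522 in knockout and 2933 to 4169 in wild-type arrays, although Ptprc and Itgam, the defining markers, were detected on 0 arrays. Lyz2, Cd52 and Laptm5 were called lower with 8 arrays, with Lyz2 at least 42.4-fold lower in knockout cells given c-di-GMP (-5.89 ± 0.25, adjusted p = 3.42e-05). Cd14, of the same list, went the other way, with a difference of 1.22 ± 0.54 with c-di-GMP (adjusted p = 0.203), and was called higher with 7 arrays in both treatments (1.26, adjusted p = 0.000974, and 0.94, adjusted p = 0.0135). Skeletal muscle markers summed to 296 to 309 in knockout and 384 to 512 in wild-type arrays, with Myod1 and Myf5 detected on 0 arrays. Of 7 liver markers, Alb, Afp, Ttr and Apoa1 were detected on 0 arrays, Hnf4a on 5 and Apoa2 and Serpina1a on 3 each, and their sum was 231 to 511 in knockout (231 to 239 without SAMPLE 8) and 212 to 241 in wild-type arrays. Of 6 placenta markers on the array, Prl3d1, Tfap2c, Elf5, Cdx2 and Hand1 were detected on 0 arrays, and Gata3 on 1 knockout array and 4 wild-type arrays (-2.17 ± 0.37 with c-di-GMP, adjusted p = 0.0108). Among fibroblast markers Pdgfra was higher (3.03 ± 0.39, adjusted p = 0.00374) and Col3a1 lower (-2.42 ± 0.38, adjusted p = 0.00811) in knockout cells given c-di-GMP. The part of these marker differences in the levels of Igf2, H19, Dlk1 and Slc38a4 was not tested. In bulk RNA, more cells that express a gene and more RNA per cell cannot be told apart.

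**Figure D5:**
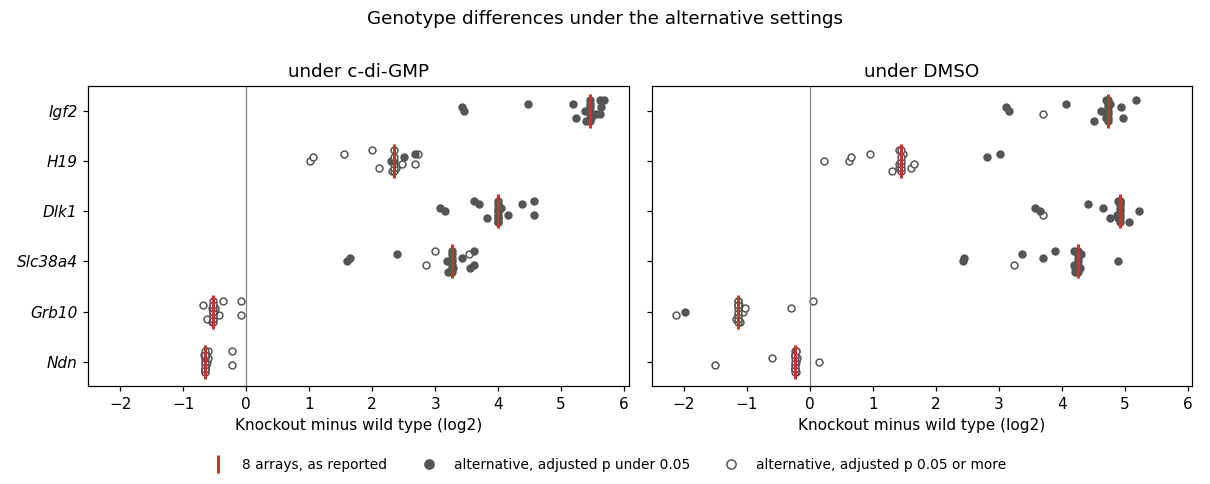
Knockout minus wild type (log2) of the 6 tested imprinted genes under the 20 alternative settings (circles; filled where adjusted p was under 0.05) and as reported with 8 arrays (red bars), under c-di-GMP (left) and DMSO (right). Igf2 runs from 3.43 to 5.68 and Dlk1 from 3.07 to 4.57 with c-di-GMP, H19 from 1.01 to 2.73, and Grb10 with DMSO reaches 0.05 at its highest.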

How the data were processed

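Total RNA of 8 MEF samples was hybridised to 1-colour Illumina bead arrays. The probe intensity that the authors deposited without normalization has a detection p-value beside each signal, per the file headers, and GenomeStudio 2010.2 is named in the submitters' processing notes. The sources used here give neither the meaning of the detection p-value nor any background step of the export. A deposited table of normalized intensity, of unstated method, served as an alternative, as log2 of the value plus a pseudocount of 16. Its p-values differ from those of the first table in 12 cells.

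The function neqc (limma 3.58.1, R 4.3.3) then corrected these signals by normexp with an offset of 16, using the detection p-values, and quantile normalized them on a log2 scale. Probes with detection p under 0.05 on at least 2 arrays were kept (13026), and the brightest probe stood for each gene (9541 genes, 9464 with 7 arrays, normalized anew). Gene names were updated through the RefSeq table, in which 940 probes kept the file's name and 31 that hold dates stayed unnamed. limma was fitted on 1 mean per group with 4 residual and 2.77 prior degrees of freedom, two-sided, with Benjamini-Hochberg adjustment over all genes and a threshold of 0.05. The code was tested on simulated data. The number of arrays limits the precision. The named genes are all members, their 3 nearest genes, and genes of 4 lists that were called in a genotype comparison, up to 8 a list; Mkrn3, Igf1, Igf1r and the marker genes are named as checks. In the lists, Ctcf and Dnmt1 were among the genes called only with 7 arrays. Members and lists were chosen with earlier results of these data known.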

Additional observations from a re-analysis of the deposited data

How the results depend on the processing

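The differences of Igf2 and Dlk1 with c-di-GMP kept their call under all 20 alternatives (lowest values 3.43 and 3.07), while Slc38a4 lost its call in 3 of the 8 fits that leave out 1 array and H19 gained one in 4 of the 19 alternatives that gave a value; H19 could not be tested where detection on 4 arrays was required. With median scaling of all 8 arrays, which moved the median of all genes to 0.46 with c-di-GMP and -0.63 with DMSO, the DMSO calls of Igf2 (3.70, adjusted p = 0.147), Dlk1 (3.71, 0.0972) and Slc38a4 (3.24, 0.0715) were lost, so 0 members were called with DMSO; with median scaling and without SAMPLE 8, an alternative chosen after seeing the data, these calls were kept. The share of called genes that were higher with c-di-GMP was 41.8% as reported, 12.2% with median scaling and 73.2% with median scaling and no SAMPLE 8, and with DMSO 41.2%, 3.26% and 56.4%. Called member counts with c-di-GMP were 3 as reported, 5 with array weights and 2 to 6 when 1 array was left out; with DMSO they were 3 and 3 to 4. For c-di-GMP in knockout cells they were 0 and 0 to 4, and for the difference of responses 0 and 0 to 5, where the highest counts came when SAMPLE 8 stood alone in its group.

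Genes called between genotypes with c-di-GMP numbered 1335, against 148 with median scaling, 4021 with array weights, 2539 with median scaling and no SAMPLE 8, and 376 to 4282 with 1 array left out. With DMSO they numbered 1214, against 92, 274 with array weights and 269 to 6106. For c-di-GMP in wild-type cells they numbered 57, against 0 with median scaling, 90 with the authors' normalized values, 86 without background correction, 90 with offset 50, 34 with detection on 4 arrays, 12 with the replicate block, 492 with array weights, 104 with median scaling and no SAMPLE 8, and 0 to 584 with 1 array left out. In knockout cells they numbered 0, and 0 to 5478 with 1 array left out. For the difference of responses they numbered 4, against 0 with median scaling, detection on 4 arrays, the replicate block or an intensity trend, 1 with every probe on its own or array weights, 15 without background correction or with offset 50, 23 with the authors' values, 11 with median scaling and no SAMPLE 8, and 0 to 4637 with 1 array left out. The cause of these shifts was not tested. Replicate numbers did not pair the arrays (correlations of -0.0258 to 0.0645 between groups), and the replicate block changed no call of a member (Igf2 with c-di-GMP adjusted p = 0.000849). Array weights came out equal for both arrays of a group (0.109 for each knockout DMSO array), so they could not set SAMPLE 8 apart. Weak signal limits what can be read on SAMPLE 8, where only probes above 7.53 (log2) were detected.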
